A study of Mus musculus with 12 samples.

Results

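The genes described here mark astrocytes and the endfeet that astrocytes press against blood vessels: the water channel *Aqp4*, the endfoot membrane proteins *Mlc1*, *Hepacam* and *Dag1*, the gap junction connexins *Gja1*, *Gjb2* and *Gjb6*, and the identity genes *Aldh1l1* and *S100b*. They were chosen by name for these roles, with earlier results of these data known. By symbol, 8 of the 9 were found among the 18903 genes of the count table. *Gjb6* was not analysed here. The 12 libraries came from primary astrocyte cultures of mouse brain taken at P1, P6 or P8, and each combination of age and genotype had 2. Animals labelled WT were hGFAP-cre::*Rack7*+/+ and animals labelled cKO were hGFAP-cre::*Rack7* fl/fl, so every culture carried the Cre transgene. In the floxed allele, loxP sites flank exons 3 and 4 of *Rack7*. Cre was driven by the human GFAP promoter, which acts in embryonic neural stem cells that give rise to neurons as well as glia, and the labels name the culture source only as brain. Meninges had been peeled away, and shaking of the cultures served to deplete microglia and oligodendrocytes. Replicates are labelled as biological repeats, with no animal or litter given.

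Astrocyte endfeet wrap the vessels of the brain and exchange water and ions with them. AQP4 carries the water and is held in the endfoot membrane by the dystrophin complex, which binds dystroglycan, the product of *Dag1*. Dystroglycan in turn grips laminin and agrin in the vessel's basement membrane. MLC1 and its partner HEPACAM, also called GlialCAM, sit at contacts between astrocytes, where they take part in the regulation of cell volume. Connexins form gap junctions that join astrocytes into a network, and *Gja1* encodes the main connexin of astrocytes. *Gjb2* encodes a connexin that is found in some astrocytes and also in leptomeningeal cells. ALDH1L1 is a folate enzyme used as a marker of astrocytes, and S100B is a calcium-binding protein of astrocytes and of some oligodendrocyte lineage cells.

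The 250 bases before the start of *Gja1*, *Gjb2* and *S100b* are shown because these genes were lower together in the P8 libraries labelled cKO. They were read from RefSeq on GRCm38.p6, 5′ to 3′ on the strand of each gene, and capitals mark a motif that was searched for on both strands. *Aqp4* was also lower at P8, and its sequence is not shown.
Gja1, chr10:56377050-56377299, plus strand: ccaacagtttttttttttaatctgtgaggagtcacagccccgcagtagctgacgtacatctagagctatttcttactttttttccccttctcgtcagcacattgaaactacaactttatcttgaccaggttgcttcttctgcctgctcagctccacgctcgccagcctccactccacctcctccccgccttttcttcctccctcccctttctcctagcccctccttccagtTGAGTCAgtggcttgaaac
Gjb2, chr14:57104703-57104952, minus strand: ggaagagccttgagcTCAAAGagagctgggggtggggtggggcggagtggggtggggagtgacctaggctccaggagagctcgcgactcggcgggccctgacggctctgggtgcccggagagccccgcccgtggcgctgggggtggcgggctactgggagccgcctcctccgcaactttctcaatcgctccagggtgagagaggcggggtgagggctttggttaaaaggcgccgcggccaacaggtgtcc
S100b, chr10:76253586-76253835, plus strand: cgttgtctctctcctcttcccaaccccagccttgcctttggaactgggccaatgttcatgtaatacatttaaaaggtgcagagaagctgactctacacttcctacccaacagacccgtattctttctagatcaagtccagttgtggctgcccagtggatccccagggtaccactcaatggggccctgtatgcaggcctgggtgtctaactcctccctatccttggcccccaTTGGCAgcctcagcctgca
The window of *Gja1* held the AP-1 motif TGACTCA as its reverse complement, starting at position -19 from the gene start, and 4.46% of 32851 promoters of this length held that motif. *Gjb2* had the TCF/LEF core TCAAAG at position -235, which 13.8% of promoters held. In *S100b* the NFI motif TTGGCA lay at position -19, and 12.3% of promoters held it. None of the 3 motifs contains another, and no window held more than 1 of them. The window of *Gjb2* was richest in G and C, at 69.2%, against 50% for *Gja1* and 53.6% for *S100b*. The windows of the other genes found, apart from *Aqp4*, were searched as well. That of *Hepacam*, which was not called at P8, held TTGGCA at position -39. Those of *Mlc1*, *Dag1* and *Aldh1l1* held none of the motifs. Such matches describe letters only.

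*Zmynd8*, the gene of RACK7, was higher in the libraries labelled cKO at every time point. On the log2 scale it differed by 0.65 at P1, by 1.04 at P6 and by 0.70 at P8. This goes against the direction of the label, although a count over the whole gene cannot show the loss of 2 exons. The study also examined RACK7 protein in such cultures, by immunoblot and by chromatin immunoprecipitation, and neither was analysed here. The libraries are therefore called by their labels, and every direction below rests on them. All 23 of the other astrocyte markers that were found had reads in all 12 libraries. So did every marker found for microglia, neurons, endothelial and mural cells, so the presence of reads does not tell cell types apart. *Gfap*, an intermediate filament of astrocytes, had group means of 179.9 to 569 CPM. Library totals lay between 54413500 and 89183200 counts. CPM is the count scaled to the TMM-normalized library size, and RPKM is CPM divided by the length of the merged exons in kilobases.

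*Dag1*, *Aqp4* and *Mlc1* were the most abundant members and *Gjb2* the least abundant. On the RPKM scale, which allows levels of different genes to be compared, the mean over the 6 groups was 75.9 for *Dag1*, 67.3 for *Aqp4* and 67.1 for *Mlc1*. *Aldh1l1* followed at 35.7, *Gja1* at 20.7, *Hepacam* at 16.5, *S100b* at 6.10 and *Gjb2* at 1.69 RPKM. With the length of the longest transcript in place of merged exons, a choice made after the values were seen, *Gja1* came to 66.8 and passed *Aldh1l1* at 38.6, since its merged exons span 10257 bases and its longest transcript 3182. The order within a gene varied more. Between the highest and the lowest group mean in CPM, *Gjb2* changed 43.0-fold and *S100b* 17.8-fold, whereas *Dag1* changed 2.06-fold.

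**Figure D1:**
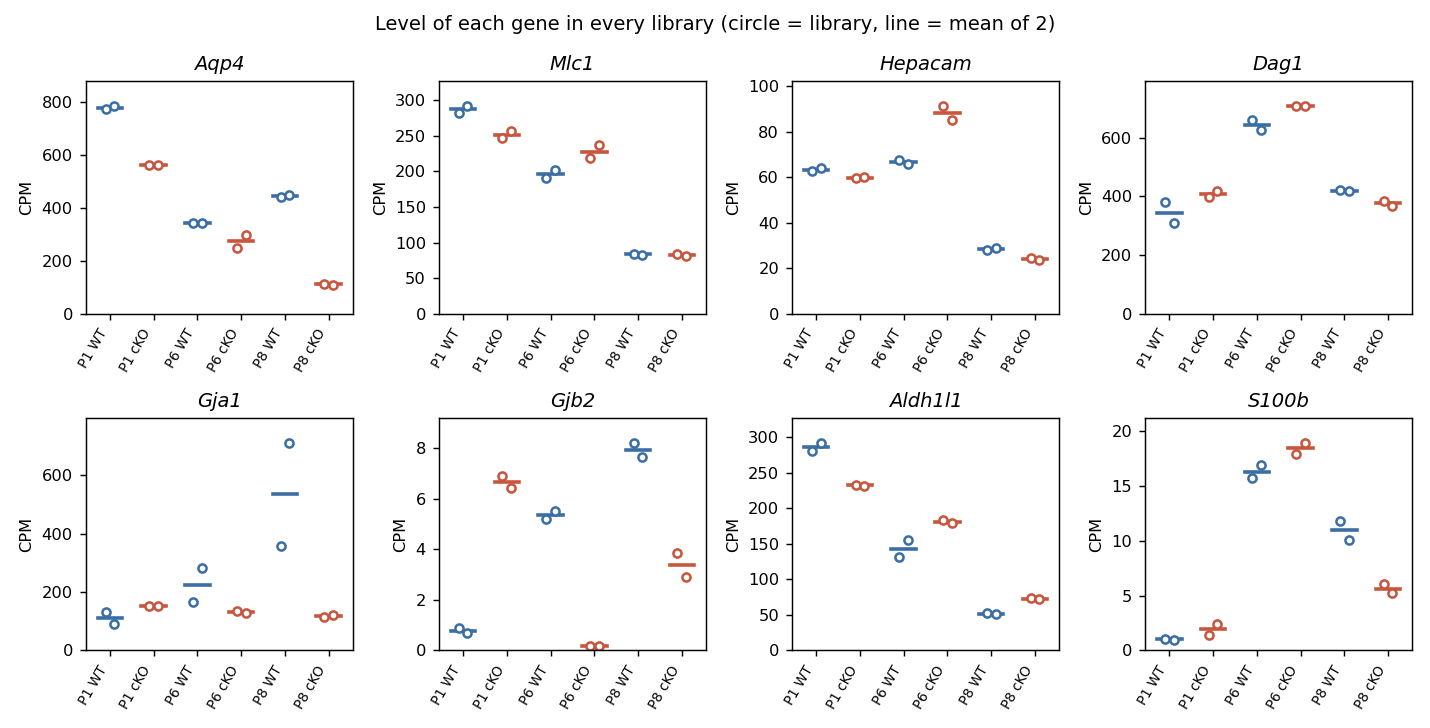
CPM of each gene (vertical axis, linear from 0) in every library, with a circle for a library and a line for the mean of 2, by time point and label. *Aqp4* in the P8 libraries labelled cKO lies at 113 and 109, below all other libraries, and the libraries of *Gja1* labelled WT are spread from 91.4 to 712.

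The comparison of labels within each time point found few differences at P1 and P6 and more at P8. A gene was called at an adjusted p below 0.05 from edgeR's quasi-likelihood test, adjusted over all 17938 genes tested, together with a fold change of at least 1.5. At P1, 2 of the 8 members were called higher (*Gjb2* and *S100b*) and 0 lower, where 4.01% of all genes were called higher and 0.892% lower. At P6, 0 were higher and 1 lower (*Gjb2*), beside 7.16% and 6.38% of all genes. At P8, 0 were higher and 4 lower (*Aqp4*, *Gja1*, *Gjb2* and *S100b*), beside 11.2% and 8.37%. With fold size left aside, 4, 5 and 6 of the 8 passed the adjusted p at P1, P6 and P8, beside 9.48%, 25.7% and 34.4% of all genes. The median log2 fold change of the members was 0.08, 0.16 and -0.59 at P1, P6 and P8, with medians over all genes of 0.00, 0.00 and 0.01. Members whose libraries did not overlap between labels numbered 8, 8 and 7 of 8, while this held for 51.2%, 59% and 70.8% of all genes. Permutation of 2 libraries against 2 allows no exact two-sided p below 0.333. In bulk RNA, fewer cells of a type and less RNA per cell cannot be told apart.

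**Figure D2:**
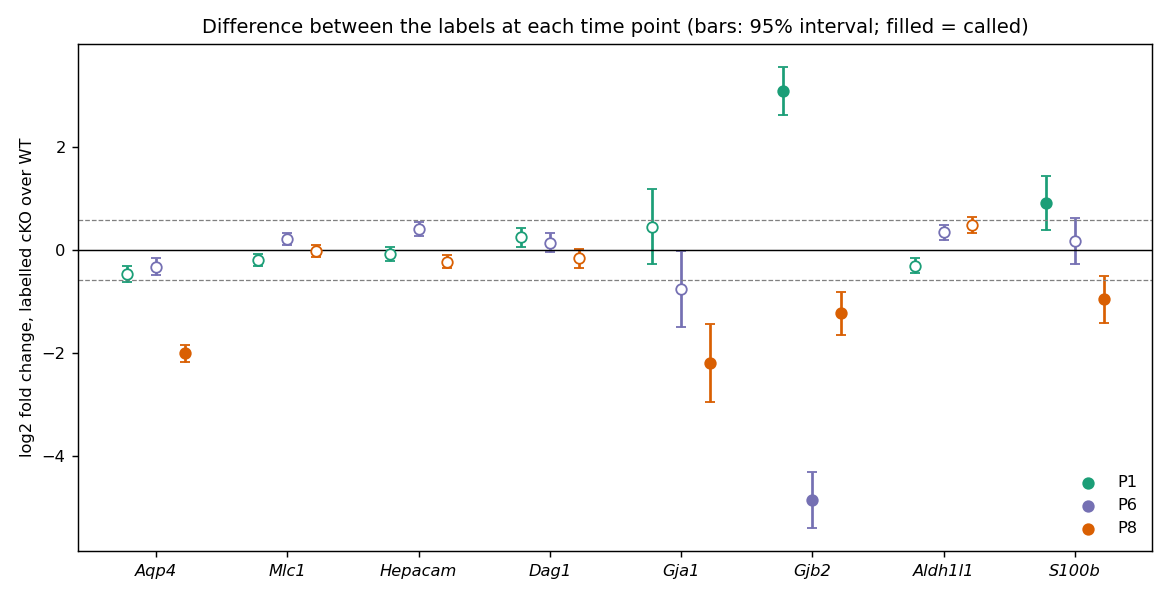
Log2 fold change of the libraries labelled cKO over those labelled WT (vertical axis) for each gene at P1, P6 and P8, with 95% intervals as bars, filled points for called genes and dashed lines at a fold change of 1.5. *Gjb2* stands at 3.08, -4.85 and -1.23, *Aqp4* and *Gja1* lie near -2 at P8, and *Mlc1*, *Hepacam* and *Dag1* stay between the dashed lines.

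*Aqp4* (ENSMUSG00000024411, chromosome 18, 15389496 to 15410982, GRCm38), the water channel of the endfoot, was lower under the label cKO at every time point, and the difference was 4.02-fold at P8. Its CPM at P1 was 773 and 786 for the label WT, with 564 and 562 for the label cKO. Libraries of P6 had 344 and 342 CPM under WT and 248 and 299 under cKO. Those of P8 had 443 and 451 under WT and 113 and 109 under cKO. The groups did not overlap at any time point, and the P8 libraries labelled cKO were the lowest of all 12. The difference in log2 CPM came to -0.47 at P1 (standard error 0.071, adjusted p = 0.00326), -0.33 at P6 (0.071, adjusted p = 0.00830) and -2.01 at P8 (0.073, adjusted p = 7.87e-08). The first pair of differences passed the adjusted p but stayed under 1.5-fold. With age, *Aqp4* fell from P1 to P8 by 0.80 on the log2 scale under WT and by 2.34 under cKO. From P1 to P6 it fell by 1.18 on the log2 scale under the label WT and by 1.04 under the label cKO. The labels parted after P6. The log2 change was 0.38 for the label WT, under 1.5-fold, and -1.30 for the label cKO, which was called. The genotype effect at P8 differed from that at P6 by -1.68 (adjusted p = 4.84e-06, edgeR) and from that at P1 by -1.54 (adjusted p = 4.81e-06), but P6 and P1 differed by 0.14 (adjusted p = 0.413), or by 0.27 (adjusted p = 0.00765) without P6 cKO replicate 1. The annotated span overlaps *AC133525.2* on the opposite strand, and with the strand setting unknown, reads of overlapping genes cannot be told apart.

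*Mlc1* (ENSMUSG00000035805, chromosome 15, 88955884 to 88979007), which encodes a membrane protein of astrocyte contacts, was not called at any time point between the labels. In order of age, its pairs of CPM under WT were 282 and 292, then 191 and 201, then 84.5 and 82.1. Under cKO the levels were 246 and 257, then 219 and 237, then 83.4 and 80.7. Only the P8 pairs overlapped. The 95% interval of the log2 fold change at P8 ran from -0.14 to 0.10. The time points differed far more than the labels. From P1 to P8 *Mlc1* fell by 1.78 on the log2 scale in the libraries labelled WT and by 1.62 in those labelled cKO. The step from P1 to P6 was -0.55 and -0.14, neither called, though the first was called without P6 WT replicate 2 (-0.59), and that from P6 to P8 was -1.24 and -1.47.

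*Hepacam* (ENSMUSG00000046240, chromosome 9, 37367351 to 37386575), whose product escorts MLC1 to cell contacts, had its highest levels in the P6 libraries labelled cKO. In order of age, its pairs of CPM under WT were 62.7 and 64.1, then 67.5 and 65.8, then 27.8 and 28.9. Under cKO the levels were 59.6 and 60.1, then 91.4 and 85.2, then 24.6 and 23.8. The log2 fold change of 0.41 at P6 (standard error 0.058, adjusted p = 0.000767) and that of -0.23 at P8 (adjusted p = 0.0139) passed the adjusted p and fell short of 1.5-fold. From P1 to P6 the log2 change was 0.07 under WT and 0.56 under cKO, neither called, though the second was called without P6 cKO replicate 2 (0.61). Both labels dropped after P6, by 1.23 on the log2 scale under WT and 1.87 under cKO, and from P1 to P8 they dropped by 1.16 and 1.31. The effect of the label at P8 differed from that at P6 by -0.63 (adjusted p = 0.000568).

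*Dag1* (ENSMUSG00000039952, chromosome 9, 108204634 to 108263958), which encodes the laminin receptor dystroglycan, was not called between the labels at any time point. In order of age, its pairs of CPM under WT were 379 and 308, then 660.1 and 624, then 421 and 418. Under cKO the levels were 396 and 417, then 706 and 707, then 383 and 368. None of these differences passed the adjusted p, and the log2 fold changes of 0.24, 0.14 and -0.16 had 95% intervals that lay between -0.34 and 0.43. With age it formed a peak at P6. The rise from P1 was 0.90 on the log2 scale under WT and 0.80 under cKO, and the following change was -0.62 and -0.91. Without P6 WT replicate 1 the change under WT was -0.57, which is under 1.5-fold. From P1 to P8 the change was 0.29 and -0.11, neither called. The P8 effect differed from the P1 effect by -0.40 (adjusted p = 0.0306).

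*Gja1* (ENSMUSG00000050953, chromosome 10, 56377330 to 56402513), the main astrocyte connexin, climbed with age in the libraries labelled WT and had no called change with age in those labelled cKO. Under the label WT its CPM was 132 and 91.4 at P1, then 166 and 284, then 359.7 and 712. Under the label cKO it was 154 and 151, then 136 and 129.8, then 113 and 120.4. The P8 libraries labelled WT were the highest of all 12 and did not overlap with those labelled cKO. At P8 the log2 fold change was -2.20 (standard error 0.34, adjusted p = 0.000805), or 4.58-fold lower under cKO. At P1 it was 0.45 (adjusted p = 0.488) and at P6 -0.76 with a 95% interval from -1.49 to -0.02 (adjusted p = 0.127), neither of them called. Without single libraries these values lay between 0.21 and 0.74 (without P1 WT replicate 2 and replicate 1) and between -1.09 and -0.32 (without P6 WT replicate 1 and replicate 2), and none was called. From P1 to P8 the level rose by 2.27 on the log2 scale under WT, while under cKO the change was -0.38 with an interval from -1.11 to 0.35, in steps of -0.20 and -0.19. The P8 effect differed from the P1 effect by -2.65 (adjusted p = 0.00247) and from the P6 effect by -1.44 (adjusted p = 0.0534). The latter was called without P6 WT replicate 2 (-1.87) or P8 WT replicate 1 (-1.85).

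The replicates of *Gja1* were uneven in the libraries labelled WT and even in those labelled cKO. The higher WT-labelled library had 1.44, 1.71 and 1.98 times the level of the lower at P1, P6 and P8, against 1.02, 1.05 and 1.06 times under cKO. The genes that averaged 1 CPM or more over all 12 libraries and had reads in both P8 WT libraries numbered 15096. Of these, 384 were at least as far apart in P8 WT, or 2.54%. Other astrocyte markers went either way between these libraries. In the library with more *Gja1*, *Apoe*, which encodes a lipid carrier, was at 1.75 times its level in the other, *Gfap* at 1.03 times, *Bcan* at 0.665 times and *Fgfr3*, a growth factor receptor, at 0.607 times. These were looked up after the gap in *Gja1* was seen. Without replicate 2 of P8 WT the log2 fold change at P8 was -1.62 and remained called. The separate steps under WT rested on single libraries. The change from P1 to P6 was 1.01 (adjusted p = 0.0339) but 0.77 (adjusted p = 0.185) without P1 WT replicate 2 and 0.57 (adjusted p = 0.246) without P6 WT replicate 2. The change from P6 to P8 was 1.25 (adjusted p = 0.0154) but 0.92 (adjusted p = 0.0950) without P6 WT replicate 1 and 0.68 (adjusted p = 0.13) without P8 WT replicate 2.

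*Gjb2* (ENSMUSG00000046352, chromosome 14, 57098600 to 57104702), a low-abundance connexin, was called at all 3 time points, higher under cKO at P1 and lower at P6 and P8. At P1 its CPM was 0.905 and 0.676 under WT, from 54 and 55 counts, and 6.89 and 6.42 under cKO. The P6 libraries had 5.21 and 5.52 CPM under WT and 0.183 and 0.187 under cKO, where each held 12 counts. Those of P8 had 8.22 and 7.67 under WT and 3.85 and 2.92 under cKO. The groups lay apart each time, but the label that was high switched after P1. On the log2 scale it differed by 3.08 at P1 (standard error 0.21, adjusted p = 2.12e-05), -4.85 at P6 (0.24, adjusted p = 9.45e-07) and -1.23 at P8 (0.19, adjusted p = 0.000770), which is 8.45-fold, 28.8-fold and 2.35-fold. For the low P6 libraries the exact Poisson 95% intervals ran from 0.0944 to 0.319 and from 0.0965 to 0.326 CPM, which cover counting error only. Every change of the effect between time points passed the adjusted p, at -7.93 from P1 to P6, 3.61 from P6 to P8 and -4.31 from P1 to P8. Under WT the level rose from P1 to P6 by 2.77 on the log2 scale, with a further 0.57 to P8 that was not called, and under cKO it fell by 5.16 and then rose by 4.18. From P1 to P8 the change was 3.34 under WT and -0.98 under cKO, both called.

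*Aldh1l1* (ENSMUSG00000030088, chromosome 6, 90486427 to 90600203), the folate enzyme used to mark astrocytes, fell steeply with age under both labels. Its CPM was 281 and 292 under WT and 233 and 231 under cKO at P1. The P6 libraries had 132 and 155 CPM under WT and 184 and 179 under cKO, and those of P8 had 52.4 and 51.3 under WT and 73.3 and 72.1 under cKO. The label WT was thus the higher at P1 and the lower at P6 and P8, without overlap. None of these differences reached 1.5-fold, although all passed the adjusted p: the log2 fold change was -0.30 (adjusted p = 0.0226), 0.34 (adjusted p = 0.00526) and 0.49 (adjusted p = 0.000446). From P1 to P6 the fall was called under WT (adjusted p = 3.13e-06), while the change under cKO was -0.36 and stayed under 1.5-fold, and from P6 to P8 it was -1.47 and -1.32. From P1 to P8 the change was -2.47 under WT and -1.67 under cKO on the log2 scale, and the effect of the label changed by 0.79 (adjusted p = 0.000265). *Gm15756*, *Gm44236* and *Gm45901* overlap its span.

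*S100b* (ENSMUSG00000033208, chromosome 10, 76253853 to 76261159), which encodes a calcium-binding protein, was low at P1 and highest at P6. At P1 it had 1.07 and 0.995 CPM under WT and 1.43 and 2.44 under cKO. The P6 libraries had 15.7 and 16.9 CPM under WT and 17.9 and 19.0 under cKO, and those of P8 had 11.8 and 10.1 under WT and 6.03 and 5.25 under cKO. The libraries labelled cKO were the higher at P1 and P6 and the lower at P8. At P8 the log2 fold change was -0.96 (standard error 0.20, adjusted p = 0.00529), or 1.94-fold lower under cKO. The rise called at P1, 0.90 with an adjusted p of 0.0407, was lost in most alternatives, and was 0.47 (adjusted p = 0.194) without P1 cKO replicate 2. The rise from P1 to P6 was 3.98 under WT and 3.25 under cKO on the log2 scale. The following change was -0.57 under WT (adjusted p = 0.0517, not called) and -1.71 under cKO, which left rises from P1 to P8 of 3.41 and 1.54. *S100b* overlaps *Dip2a* on the opposite strand. *Dip2a* had 46.5 to 65.6 CPM, and its log2 fold changes of 0.25, -0.03 and -0.23 were not called, as seen in a look-up made afterwards.

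The changes with age were read against the same background. From P1 to P6 under WT, 4 members were called higher and 2 lower, beside 12.2% and 10.9% of all genes. From P6 to P8 the count was 1 higher and 4 lower (8.66% and 10.3%), and from P1 to P8 3 and 4 (14.4% and 15%). Under cKO it was 2 higher and 2 lower from P1 to P6 (11% and 10.4%), 1 and 6 from P6 to P8 (11.9% and 12.2%), and 1 and 5 from P1 to P8 (10.3% and 9.97%). P1, P6 and P8 are the ages at which brain tissue was taken, before the cells were grown in culture. The cultures of the time points came from different animals, and time points cannot be told apart from culture preparations. Of the changes of the label's effect, called by adjusted p alone, 3 were positive and 1 negative between P1 and P6 (7.12% and 8.19% of all genes). Between P6 and P8 they were 1 and 4 (12.6% and 8.83%), and between P1 and P8 1 and 5 (14% and 11.7%). The effects at different time points share libraries with these contrasts, so the counts are not separate lines of evidence.

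The levels of some members moved side by side over the 12 libraries. As a description across libraries that share groups, the Pearson r of log2 CPM was 0.97 for *Mlc1* with *Aldh1l1*, 0.92 for *Mlc1* with *Hepacam*, 0.83 for *Hepacam* with *Aldh1l1* and 0.80 for *Dag1* with *S100b*. The connexins *Gja1* and *Gjb2* had r = 0.54, and *Aqp4* with *Gjb2* had 0.02. Among 15146 genes with a mean of at least 1 CPM, those most like *Aqp4* were *Dnah11* (r = 0.99), *F11r* (0.99) and *Atp1b2* (0.99). *Gja1* was most like *Zim1* (0.93), *Pdia4* (0.93) and *E130308A19Rik* (0.93), and *Gjb2* most like *Has2* (0.98), *Apod* (0.96) and *Lrrc15* (0.94). *Mlc1* ran with *Fmn2*, *Ift122* and *Ston2* (0.99 each), *Hepacam* with *Acsbg1*, *Nebl* and *Adrb1* (0.99 each), and *Aldh1l1* with *Sox1*, *Ddo* and *Crb2* (0.99 each). For *Dag1* they were *Cpe* (0.98), *Fam107a* (0.97) and *S100a10* (0.97). For *S100b* they were *Gm28438* (0.99), *mt-Nd3* (0.99) and *Wipi1* (0.99).

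Other endfoot genes, those of the dystrophin complex and of endfoot channels and transporters, were mostly not called, with more falls than rises at P8. Of 19 tested, 2 were higher and 0 lower under cKO at P1, with 5 and 1 at P6 and then 2 and 7 at P8. Of all genes, 4.01% were higher and 0.892% lower at P1, with 7.16% and 6.38% at P6 and then 11.2% and 8.37% at P8, and the counts of every list below stand beside these shares. The count at P1 was 0 without P1 WT replicate 1 and 1 without P1 cKO replicate 1. The median log2 fold change was 0.03, 0.34 and -0.22, against 0.00, 0.00 and 0.01 over all genes. *Kcnj10*, the potassium channel that shares the endfoot with AQP4, went from 208 to 129.8 CPM at P6 and from 112 to 35.5 CPM at P8, a log2 fold change of -0.68 and -1.66, both called. *Atp1b2*, a subunit of the sodium pump, fell by 1.45 on the log2 scale at P8, and *Sgcd*, a sarcoglycan, fell by 1.92. *Dtna*, the dystrobrevin of the complex, was the other way, at 0.78 at P6 and 0.93 at P8. *Sspn*, which encodes sarcospan, changed from 0.64 at P1 and 0.62 at P6 to -0.59 at P8, each called. *Sgca* at 2.25 and *Trpv4* at 1.49 rose at P6 from low levels. *Utrn*, whose product can stand in for dystrophin, was not called at any time point, with log2 fold changes of 0.21, 0.16 and -0.18. *Agrn*, the basement membrane partner of dystroglycan, was not called, at 0.28, 0.41 and -0.22.

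Among 12 tested genes that glycosylate dystroglycan, and so let it bind laminin, 1 was called at P8. *B3galnt2* was lower there under cKO, with 13.6 against 45.2 CPM and a log2 fold change of -1.73. *Pomgnt1* and *B4gat1* were not called at any time point.

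The other connexins and *Panx1* were rare, and their calls under cKO were mostly rises. Of 9 tested, 1 was higher at P1, 3 at P6 and 4 at P8, and 1 was lower at P8. *Gja5* rose by 2.94 on the log2 scale at P6 and 2.49 at P8, and *Gja3* was called higher at both, by 1.91 at P8. *Gjc1* fell by 0.86 at P8. *Panx1*, which forms single-membrane channels, was not called, at 0.20, -0.41 and -0.03. The count at P6 was 1 without either P6 WT library or without P6 cKO replicate 1, and 5 (3 higher, 2 lower) without either P1 WT library. At P1 it was 0 without P1 WT replicate 1 and 2 without P1 WT replicate 2. At P8 it was 2 without either P8 WT library or without P8 cKO replicate 2.

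Only 3 other aquaporins were tested. *Aqp1*, a water channel of choroid plexus and of other epithelia, went from 3.23 to 6.72 CPM at P1, from 39.4 to 1.94 at P6 and from 179 to 18.3 at P8, with log2 fold changes of 1.05, -4.35 and -3.29, all called. These are the directions of *Gjb2* at each time point. *Aqp5*, below 1.5 CPM in each group, was called higher at P6 and P8, and *Aqp9* was not called. The call of *Aqp5* at P8 was lost without P8 WT replicate 1 or without either P8 cKO library.

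The folate genes around *Aldh1l1* were called in few cases. Among 14 tested, 1 was higher at P1 and 1 at P6, and 0 at P8 by edgeR, where 4 passed the adjusted p with no condition on fold change, 1 passed the unadjusted p with the fold change, and DESeq2 on all libraries called 1. Without P8 WT replicate 1, or either library of P1 cKO or P6 cKO, the P8 count was 1. *Aldh1l2*, the mitochondrial relative of *Aldh1l1*, rose by 0.86 on the log2 scale at P1, from 6.94 to 12.6 CPM. *Mthfd2*, a mitochondrial folate enzyme, rose by 0.72 at P6. *Atic*, *Gart* and *Mthfd1*, the most abundant of the list, were not called at any time point.

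Of 10 S100 relatives of *S100b*, 4 were called at P1, 4 at P6 and 1 at P8, each higher under cKO. Of all genes called at P1, 81.8% were higher. *S100a4*, known from motile and fibroblast-like cells, had 28.8 CPM under WT and 251 under cKO at P6, and its log2 fold change was 0.61, 3.13 and 2.11 at the 3 time points. *S100a6* rose by 1.29 at P1. *S100a7a* rose by 1.15 at P1 and 2.66 at P6 from under 1 CPM. *S100a10* and *S100a11* were not called. At P1 the list gave 1 call without P1 WT replicate 1, and at P8 it gave 2 without either P1 WT library.

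Other astrocyte markers were split. Of 23 tested, 3 were higher and 0 lower at P1, with 7 and 2 at P6 and then 3 and 7 at P8. *Gfap* fell by 1.07 on the log2 scale at P8, from 378 to 179.9 CPM. *Ndrg2* fell by 1.49 at P6 and 1.88 at P8, *Aldoc*, an aldolase, by 0.74 and 1.30, and *Bcan*, a proteoglycan, by 1.69 at P8. *Clu*, a secreted chaperone, rose by 1.20 and 1.23, and *Mfge8* by 0.66 and 1.27. *Gpr37l1* rose by 2.41 at P1 and 1.54 at P6. *Apoe* was not called, at -0.04, 0.23 and 0.58, and *Cst3* rose by 0.62 at P6.

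**Figure D3:**
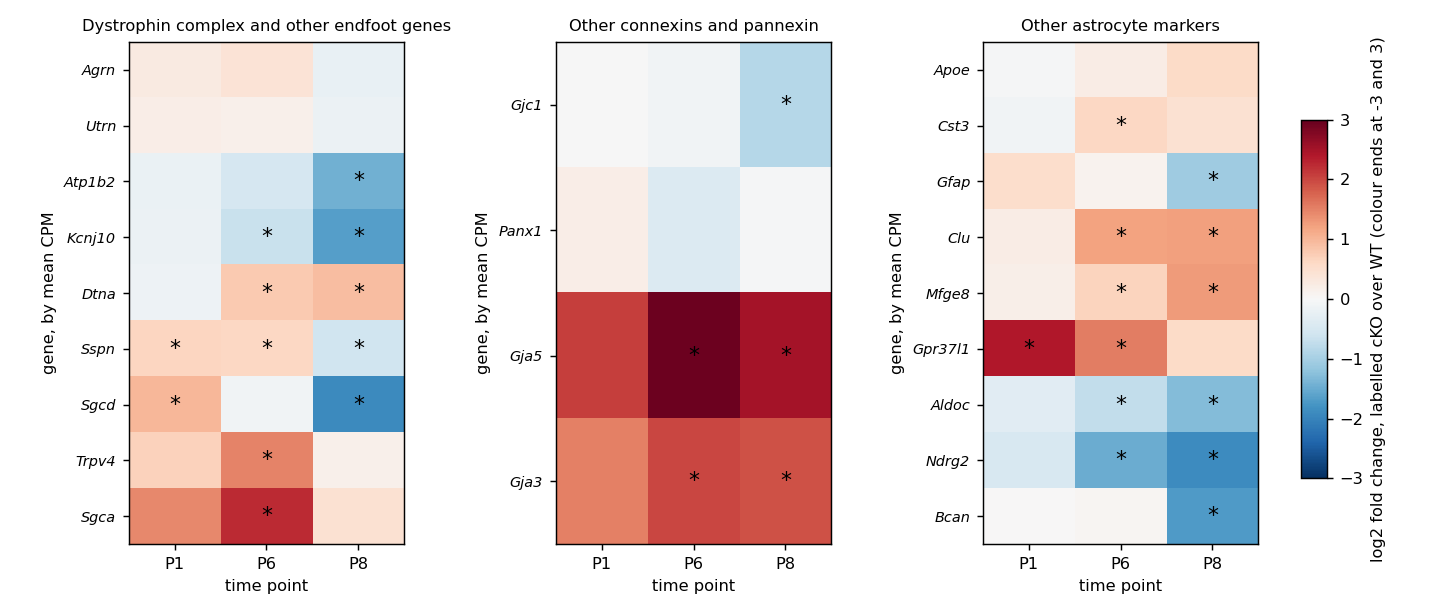
Log2 fold change of the libraries labelled cKO over those labelled WT, by colour, at P1, P6 and P8 for the endfoot genes, connexins, pannexin and other astrocyte markers named in the text, ordered by mean CPM, with an asterisk for called genes and colours ending at -3 and 3. *Kcnj10* and *Atp1b2* are blue at P8, *Gja5* and *Gja3* are red with an asterisk at P6 and P8, and so is *Gpr37l1* at P1 and P6.

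Markers of other cells moved with these results. The meningeal fibroblast list had 13 genes, of which 10 were found. Summed over the list, the label WT had 502 and 512 CPM at P1, then 6818 and 6884, then 26534 and 26426. For the label cKO the sums were 2565 and 2525, then 2731 and 2560, then 8177 and 8426. This list was thus higher under cKO at P1 and lower at P6 and P8, the directions of *Gjb2* and *Aqp1*, with 8 genes called higher at P1, 9 lower at P6 and 9 lower at P8. *Col1a1*, *Col1a2* and *Col3a1*, which encode fibrillar collagens, led it, with *Col3a1* at 3.52, -5.63 and -2.11 on the log2 scale. *Lum* was at 0 in both P6 libraries labelled cKO. Over the 12 libraries, looked at after the values were known, the log2 sum of this list had r = -0.92 with *Aldh1l1*, -0.84 with *Mlc1* and 0.72 with *Gja1*. It had 0.66 with *S100b*, -0.65 with *Hepacam*, 0.59 with *Gjb2*, -0.47 with *Aqp4* and 0.17 with *Dag1*. Sums of other lists lay closer to some members. The ependymal and choroid sum had r = 0.97 with *Aldh1l1* and 0.93 with *Mlc1*. The neuronal sum had -0.80 with *Gja1* and -0.78 with *Gjb2*, and the endothelial sum had 0.79 with *S100b*. The part of any of these cells in the levels of the members was not tested.

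**Figure D4:**
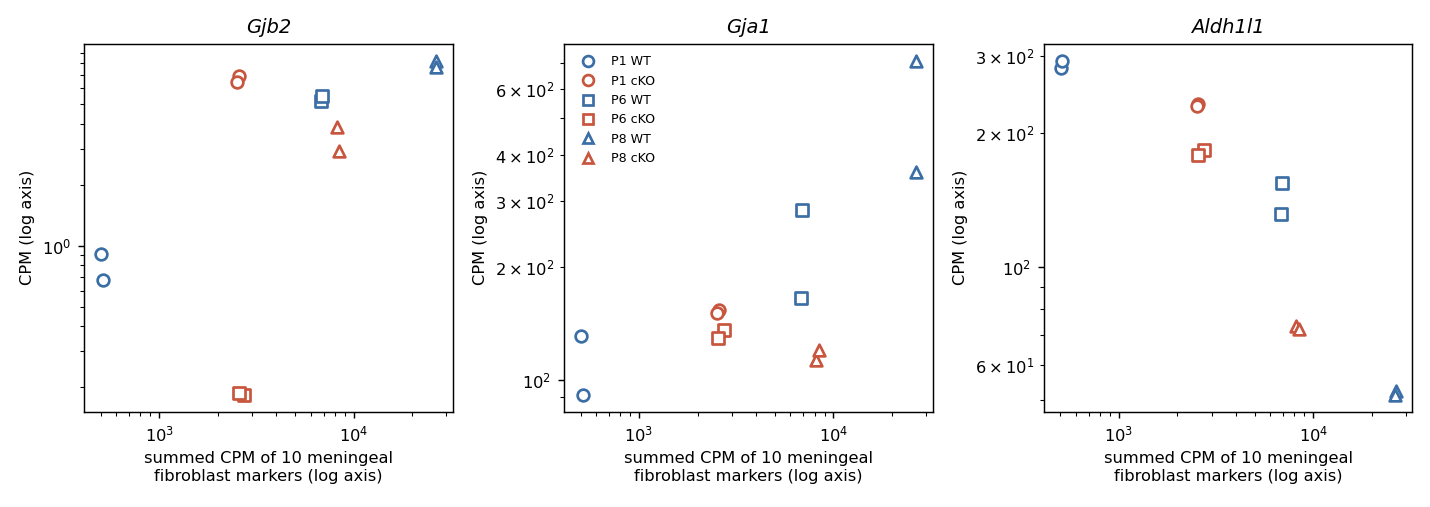
CPM of *Gjb2*, *Gja1* and *Aldh1l1* (vertical log axes) against the summed CPM of 10 meningeal fibroblast markers (horizontal log axis), with a point for each of 12 libraries, colour for the label and shape for the time point. *Aldh1l1* lies lower where the sum is higher (r = -0.92), and *Gjb2* is at 0.183 and 0.187 in the P6 libraries labelled cKO, where the sum is 2731 and 2560.

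Microglial markers were higher under cKO at P8, when *Aqp4* and *Gja1* were lower. Their sum was 3316 and 3153 CPM under WT and 6595 and 6537 under cKO, with 9 of 12 higher and 1 lower. *C1qa* and *C1qc* rose by 1.26 and 1.25 on the log2 scale, and no marker of the list was at 0. At P1, with sums of 4676 and 4635 under WT and 3853 and 3884 under cKO, 2 were lower. At P6, with 3243 and 3405 under WT and 3804 and 3695 under cKO, 1 was higher and 1 lower. Neural stem and radial glia markers were also higher, with 1 of 9 called at P1, 5 at P6 and 6 at P8, beside 0, 1 and 1 lower. *Tnc* rose by 0.93, 2.01 and 2.04, *Nes* by 1.23 at P6 and 1.76 at P8, and *Vim* by 0.66 and 0.95. Under WT that list summed to 4663 and 4631 CPM at P1, then 4889 and 4933, then 2765 and 2815. Under cKO the sums were 5974 and 6220, then 10420 and 10276, then 5049 and 5086. The part of these cells was not tested either.

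The endothelial list was called higher 4 and lower 0 of 7 at P1, with 2 and 4 at P6 and then 2 and 2 at P8. *Cdh5*, an endothelial cadherin, was 1.63 against 13.5 CPM at P1, 56.4 against 0.859 at P6 and 133 against 9.84 at P8, with the directions of *Gjb2* again, while *Flt1* was called higher at P1 and P8, by 1.92 at P8, and *Slco1a4* by 0.76 at P6. Mural markers gave 1 higher of 6 at P1, 1 higher and 3 lower at P6 and 1 higher at P8. At P1 the mural count was 0 without P1 WT replicate 1 or P1 cKO replicate 1 and 2 without either P8 WT library, and at P6 it was 2 without P6 WT replicate 1 or P6 cKO replicate 1. *Acta2* and *Tagln* were not called, and *Pdgfrb* rose by 0.60 at P1 and fell by 0.59 at P6. Oligodendrocyte lineage markers, which bear on *S100b*, summed to 174 to 267 CPM over the 12 libraries, with 1 of 9 higher at P1, 2 lower at P6 and 1 higher and 3 lower at P8. The count was 2 at P1 without P1 WT replicate 2, and 1 at P6 without P6 WT replicate 2 or P6 cKO replicate 1. *Cspg4* rose by 0.99 at P1 and fell by 1.34 at P8, *Olig1* fell by 0.66 at P6, and *Cnp* was not called. Neuronal markers, of which 4 of 12 were found, gave 1, 3 and 2 higher (1 at P8 without any single library other than P1 cKO replicate 2 or those of P8 WT), and *Stmn2* rose by 1.11 at P6 and 1.61 at P8, *Map2* by 1.00 at P6, and *Tubb3* was not called. Ependymal and choroid markers gave 2 higher of 8 at P1, 3 higher and 1 lower at P6, and 3 and 1 at P8. *Foxj1* rose by 0.68 at P6 and 0.72 at P8, *Rarres2* by 1.84 at P1 and 2.67 at P6, and *Otx2* by 2.48 at P8. Of 8 proliferation genes, 2 were lower at P6 and 1 higher and 1 lower at P8, and at P1 2 were lower with no condition on fold change, with *Mki67* at -0.66 at P6, *Pcna* at 0.77 at P8 and *Top2a* not called. Without P6 WT replicate 1 or P6 cKO replicate 1 the P6 count was 1, and without P8 WT replicate 1 the P8 count was 1. Their part was not tested.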

How the data were processed

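RNA from primary astrocyte cultures was measured in 12 libraries, in 6 groups of 2 by time point and genotype label. According to the methods and the processing notes, mRNA was captured and reads were aligned with HISAT2 to mm10. The authors deposited whole-number counts of reads per gene for 18903 genes, without normalization, and 33 genes had no count in any library. How reads were assigned to genes (program, annotation, strand) is not stated in those sources, so overlapping genes and near-identical copies may share reads. The study's own tests used ballgown and DESeq2.

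The tests were run with edgeR 4.0.16 under R 4.3.3. Genes were filtered with filterByExpr, which left 17938, normalized by TMM (factors 0.943 to 1.07) and fitted with 1 mean for each group and no covariate in a quasi-likelihood model with all 12 libraries. Contrasts compared the labels within an age, the ages within a label, and the label's effect between ages. A call needed a p below 0.05 after Benjamini-Hochberg adjustment and a 1.5-fold or larger change, except that differences of effects were called by adjusted p alone. A standard error is the log2 fold change divided by the root of the F statistic. Positions and exon lengths came from GENCODE on GRCm38, whose build is the one the notes name. Promoters came from RefSeq on GRCm38.p6, read with Python 3.11.

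Alternatives were DESeq2 1.42.0 on all libraries or on the compared time points, its size factors, library totals alone, every gene with a count kept, a block for the replicate number, other cut-offs, and the removal of each library in turn. Where that leaves 1 library in a group, it is taken to vary like the other groups. The labels name no sequencing batch, so none was examined. Replicates were not duplicates of a library: chi-square divided by its degrees of freedom was 30.5 to 47.1 within groups. Replicate numbers recur in every group. Deviations of same-numbered libraries had correlations of -0.05 to 0.10 over 15 pairs of groups. Between the labels of a time point they were -0.014 at P1, -0.001 at P6 and -0.050 at P8. No strong shared deviation was seen, but this cannot tell whether the libraries were paired by design. The fit was tested on simulated data.

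The 8 genes found were tested in every contrast. From each list of related genes the 3 most abundant and, at each time point, the 2 largest called rises and 2 largest called falls with a mean of at least 1 CPM were named, and from each cell type list (microglia, oligodendrocyte lineage, neuron, endothelial, meningeal fibroblast, mural, ependymal and choroid, neural stem and radial glia, proliferation) the 3 most abundant. The 3 genes with the highest Pearson r over the 12 libraries were named for each member. Some genes that these rules pick are not reported here. The members and lists were chosen with earlier results of these data known.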

Additional observations from a re-analysis of the deposited data

Results flagged for a closer look

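For several genes the effect of the label, cKO against WT on the log2 scale, differed between time points by edgeR's interaction term at an adjusted p below 0.05. Groups of 2 libraries are too small for a search for libraries that stand apart.

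For *Gjb2*, which had 54 to 554 counts per library outside the P6 libraries labelled cKO and by 12 counts in each of those, the effect changed by -7.93 from P1 to P6, by 3.61 from P6 to P8 and by -4.31 from P1 to P8. The meningeal fibroblast markers had the same directions between the labels at each time point, with r = 0.59 over all libraries. Under cKO their sum was 2565 and 2525 CPM at P1 and 2731 and 2560 at P6. Mean *Gjb2* went from 6.66 to 0.185 CPM between the same groups. The sum is led by the collagen genes and does not stand for every marker of the list. *Lum* had no reads in either P6 library labelled cKO. Between the labels, the median log2 fold change of the list was 2.48 at P1 and -2.84 at P6. The part of these cells was not tested. For *Aqp4* the change was -1.68 from P6 to P8 and -1.54 from P1 to P8, and for *Gja1* it was -2.65 from P1 to P8. *S100b* changed by -1.14 from P6 to P8 and by -1.86 from P1 to P8. The first of these lost its call without P6 WT replicate 1, P6 cKO replicate 2, P8 WT replicate 1 or P8 cKO replicate 2, with values of -1.09, -1.09, -1.02 and -1.04.

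Among the smaller differences, *Aldh1l1* changed by 0.64 from P1 to P6 and by 0.79 from P1 to P8. *Hepacam* changed by 0.49 from P1 to P6 and by -0.63 from P6 to P8. *Mlc1* changed by 0.41 from P1 to P6 and by -0.24 from P6 to P8 (adjusted p = 0.0486), and the second value lost its call in 15 alternatives, among them each library left out other than P6 cKO replicate 1, with values of -0.27 to -0.18, and the replicate block (-0.24, adjusted p = 0.0544). *Dag1* changed by -0.40 from P1 to P8. That call was lost without P1 cKO replicate 2 or any of the P8 libraries, where the value lay between -0.43 and -0.36.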

How the results depend on the processing

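Of 2064 values from 96 single results under the alternatives, 1973 kept their direction and their side of the threshold, 52 lost a call, 36 gained a call and 3 changed sign. Those were *Mlc1* at P8 (-0.044 to 0.0027 without single libraries, the latter without P8 cKO replicate 2), *Hepacam* from P1 to P6 under WT (-0.035 with library totals alone) and the change of the effect on *Dag1* from P1 to P6 (-0.27 to 0.031 without single libraries, the latter without P1 WT replicate 2). None of the 3 was called with its sign changed, but the last was called without P1 WT replicate 1, at -0.27 (adjusted p = 0.0386). Library totals alone also moved the median log2 change of all genes from P1 to later time points by -0.11 to -0.13, and the share of called genes that were higher from 51.5% to 40% (P6 against P1) and from 50.8% to 36.4% (P8 against P1) under cKO.

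Counts of called members moved as follows. At P1, 2 became 1 with the replicate block, with edgeR or DESeq2 on the compared time points alone or with a fold change of at least 2, and 4 with no condition on fold change, and leaving out single libraries gave 1 to 2. The block changed no other count of members by over 1.5 times. The call lost at P1 was that of *S100b*, whose adjusted p was 0.0636 with the replicate block and reached 0.326 over the alternatives. At P6, 1 became 2 at an unadjusted p and 5 with no condition on fold change. Without single libraries the count was 3 to 5 both from P6 to P8 under WT and for the change of the effect from P6 to P8. The lower values came without P6 WT replicate 1 and without P6 cKO replicate 2 or P8 cKO replicate 2. The 4 calls at P8 remained 4 without any single library. The cause of these moves was not tested. *Zmynd8*, at 0.65 at P1 and 0.70 at P8, fell short of a fold change of at least 2. Low counts limit *Gjb2*, *S100b* at P1 and the rarer connexins.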
